A study of Mus musculus with 2 samples.

Results

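Pleural mesothelium spots were the spots of 2 spatial transcriptome sections of mouse lung, 1 from a control lung and 1 from a metastatic lung, that carried the most RNA of 4 mesothelial genes. They were chosen by measured values: within each section, spots over tissue with at least 1000 counts were ranked by the mean of ln(1 + counts per 10000 counts) over Msln, Upk3b, Upk1b and Wt1, and the top 5% were taken. This gave 93 of 1861 spots in the control section and 55 of 1104 in the metastatic section, together 148 of the 2965 spots with at least 1000 counts, which were themselves part of the 2998 spots over tissue. The comparison group, called reference spots here, were the 1336 and 906 spots with 0 counts of all 4 genes, and the remaining 432 and 143 spots, with low but nonzero marker scores, belonged to neither group.

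The visceral pleura wraps the lung and lines its fissures. Its outermost layer is the mesothelium, a single sheet of flat cells that descends from the embryonic mesoderm, keeps epithelial junctions and keratins together with mesenchymal features, and secretes the hyaluronan and lubricating glycoproteins that let the lung slide in the chest. Mesothelial cells are also known as a source of retinoic acid, complement and chemokines, and can turn into matrix-producing cells under injury. Among the genes of the score, Msln encodes mesothelin, a surface glycoprotein bound by the mucin Muc16, Upk3b and Upk1b encode uroplakins, membrane proteins first known from the bladder lining, and Wt1 encodes a zinc-finger transcription factor of the developing coelomic lining.

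The metastatic lung was from a female Balb/c mouse that had received 1000000 4T1 cells, a mammary carcinoma line of the same strain, in the mammary fat pad at 6 to 8 weeks of age, and was taken 21 to 23 days later. The control lung is labelled as untreated, and its strain, sex and age were not given separately. Sections were cut from fresh-frozen tissue and permeabilised for 18 min. With 1 section per condition, the section, the animal, the library and the condition cannot be told apart, so no p-value was computed. Every interval below is at the 95% level and covers counting error only, without the spread between animals. Intervals of levels, shares and ratios are exact, while those of differences between shares and of the ratio of the sections' ratios are approximate.

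A spot is a small disc of tissue under which several cells lie, so a mesothelial spot also held the alveolar tissue behind the pleura. In such mixtures, fewer cells of a type and less RNA per cell cannot be told apart. The control section had 20329126 counts over 1888 spots and the metastatic section 14657881 over 1110. Depth was similar between the groups, with a median of 8710 counts in mesothelial and 9110.5 in reference spots of the control section, and 10678 and 11286 in the metastatic section. The 858 spot barcodes found in both sections are fixed positions of the capture array and do not mark shared cells.

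The promoters of 4 genes that the results return to are shown first, Upk3b and Lrrn4 as genes of mesothelial identity, and C3 and Saa3 as genes of the defence response whose levels in mesothelial spots differed between the sections. Each run is the 250 bases before the RefSeq start of the gene (GRCm38.p6), 5′ to 3′ on the gene's strand, at chr5:136038246-136038495 (plus strand) for Upk3b, chr2:132880863-132881112 (minus) for Lrrn4, chr17:57228137-57228386 (minus) for C3 and chr7:46715677-46715926 (minus) for Saa3. Capitals mark a match to a TEAD motif (CATTCC), to the motif shared by early growth response factors and WT1 (GCGGGGGCG), to AP-1 (TGACTCA) or to the interferon-stimulated response element (TTTC, any 2 bases, TTTC), each searched on both strands.
Upk3b: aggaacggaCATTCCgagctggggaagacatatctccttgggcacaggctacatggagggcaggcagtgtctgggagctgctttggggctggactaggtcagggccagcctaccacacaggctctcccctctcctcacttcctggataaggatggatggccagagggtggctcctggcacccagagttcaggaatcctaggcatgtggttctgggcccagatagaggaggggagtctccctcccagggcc
Lrrn4: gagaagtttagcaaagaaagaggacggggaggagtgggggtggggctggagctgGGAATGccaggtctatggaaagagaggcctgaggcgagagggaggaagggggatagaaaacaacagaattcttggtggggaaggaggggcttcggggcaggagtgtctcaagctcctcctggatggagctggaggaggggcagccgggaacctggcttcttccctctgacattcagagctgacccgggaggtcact
C3: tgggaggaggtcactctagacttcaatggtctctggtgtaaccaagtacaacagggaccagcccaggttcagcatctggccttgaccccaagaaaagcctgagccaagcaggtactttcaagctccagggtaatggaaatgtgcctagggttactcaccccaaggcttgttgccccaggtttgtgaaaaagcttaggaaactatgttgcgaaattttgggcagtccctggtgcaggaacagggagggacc
Saa3: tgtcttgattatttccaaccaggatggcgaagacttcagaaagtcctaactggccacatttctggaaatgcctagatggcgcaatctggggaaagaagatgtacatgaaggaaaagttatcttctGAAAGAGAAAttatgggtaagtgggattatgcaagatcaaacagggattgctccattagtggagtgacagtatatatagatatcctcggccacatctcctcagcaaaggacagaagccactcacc

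The TEAD letters stood 241 bases before the start of Upk3b and, on the opposite strand, 196 bases before that of Lrrn4. They were present in 5 of the 14 mesothelial marker genes that the promoter table holds (Upk3b, Lrrn4, Gpm6a, Cldn15 and Slc39a8) and in 12.6% of all 32851 promoters of the same length. The letters shared by early growth response factors and WT1 were in 0 of those 14 and in 2.57% of all promoters, and the AP-1 letters were in 4.46%. The Saa3 window held the interferon-stimulated response element letters on the opposite strand, 125 bases before the start. These were in 10 of 15 interferon response genes, in 1 of 8 acute phase genes, in 1 of 14 mesothelial marker genes and in 2.98% of all promoters. The C3 window held none of the 4 motifs. A match describes the letters of the window and no binding was measured.

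The score that chose the spots ran from 0.724 to 1.90 in the control section, with a median of 1.03, and from 0.379 to 2.07 in the metastatic section, with a median of 0.723. The last spot inside the control threshold had 12 marker counts of 20420 and a score of 0.724, and the first outside had 10 of 18648 and a score of 0.720. In the metastatic section these were 4 of 11280 counts (0.379) and 1 of 2876 (0.375), so the top 5% reached down to spots with very few marker counts. In all, 4 metastatic members carried counts of 1 marker, 18 of 2, 19 of 3 and 14 of all 4, and the control members 0, 44, 43 and 6.

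The markers themselves differed in their makeup between the sections. Because they chose the spots, the levels here are a description. Msln reached 8.33 counts per 10000 (7.77 to 8.93) over the control members, with a lowest, median and highest spot of 1.42, 7.36 and 32.3. Over the metastatic members it reached 4.09 (3.61 to 4.62), with spots at 0, 3.05 and 21.6. Every control member and 51 of 55 metastatic members had a count of Msln. Upk3b was at 5.13 (4.69 to 5.61) in the control members, with spots at 0, 5.16 and 20.0, and at 2.11 (1.77 to 2.49) in the metastatic members, with spots at 0, 1.53 and 10.9. Upk1b lay the other way, at 0.732 (0.572 to 0.923) in the control members, where 47 of 93 spots had a count, and at 1.55 (1.26 to 1.88) in the metastatic members, where 43 of 55 had one. Wt1 was sparse in both, at 0.134 (0.0714 to 0.229) with a count in 11 control spots and 0.359 (0.228 to 0.539) with a count in 16 metastatic spots. As a share of the counts of all 4 markers, Upk1b and Wt1 made up 5.11% and 0.935% in the control members and 19.1% and 4.43% in the metastatic members.

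**Figure D1:**
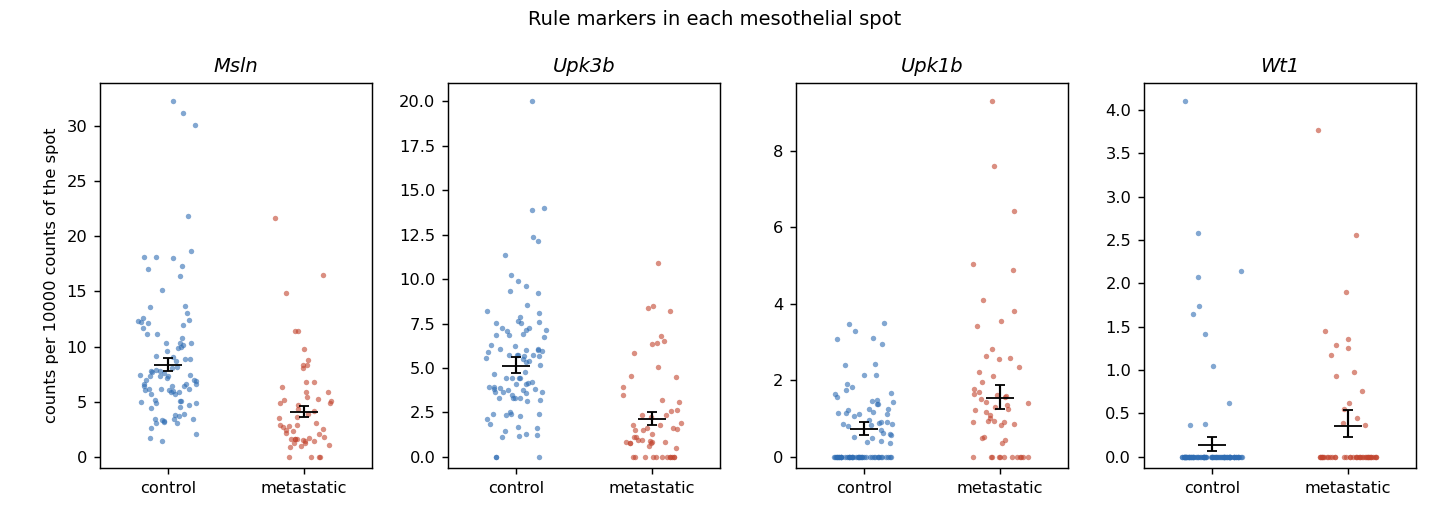
Levels of the 4 marker genes in single mesothelial spots of the control and the metastatic section, in counts per 10000 counts, with each spot as a point, the pooled level as a bar and its 95% exact Poisson interval as whiskers. Msln and Upk3b lie higher in the control members (pooled 8.33 and 5.13, against 4.09 and 2.11) and Upk1b and Wt1 higher in the metastatic members (1.55 and 0.359, against 0.732 and 0.134).

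To check the label with a gene that had not chosen the spots, each marker was left out in turn and the top 5% and the reference spots were chosen by the other 3. The left-out marker was then higher in the chosen spots in every case. Msln was 37.3-fold higher (32.8 to 42.5) in the control and 38.1-fold (30.4 to 47.9) in the metastatic section. Upk3b was 74.3-fold (59.4 to 93.8) and 126-fold (77.6 to 217) higher. Upk1b was 89.6-fold (45.7 to 196) and 137-fold (76.3 to 267) higher, and Wt1 50.7-fold (13.4 to 283) and 44.5-fold (19.6 to 110) higher. Each marker was thus concentrated where the other 3 were.

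Position was the second measure that the rule did not use. A spot was counted as an edge spot when fewer than 6 of its neighbours on the array lay over tissue. In the control section 46 of 93 mesothelial spots were at the edge, 49.5% (38.9 to 60.0), against 331 of 1336 reference spots, 24.8% (22.5 to 27.2), a difference of 24.7 percentage points (13.9 to 35.5). In the metastatic section 39 of 55 were, 70.9% (57.1 to 82.4), against 149 of 906, 16.4% (14.1 to 19.02), a difference of 54.5 points (40.4 to 66.2). When only the outer border was counted, and holes inside the tissue were not, the shares were 43.0% against 10.6% in the control and 70.9% against 10.3% in the metastatic section. Over all spots, 26.9% and 20.1% were edge spots.

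The remaining members were arranged differently in the 2 sections. Of the control members, 29 lay 2 or more steps of 1 spot inside the tissue, and 25 of these touched another member. Over all control members, 6 connected groups of 2 or more spots held no edge spot. The largest had 5 spots, and these groups appear on the map as short lines within the tissue. In the metastatic section 2 members lay 2 or more steps inside, and there were 0 such groups. Members touched another member in 71 of 93 cases (76.3%) in the control and in 49 of 55 (89.1%) in the metastatic section, whereas 7.78% and 4.42% of reference spots touched a member. The largest connected group had 10 spots in the control and 18 in the metastatic section.

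**Figure D2:**
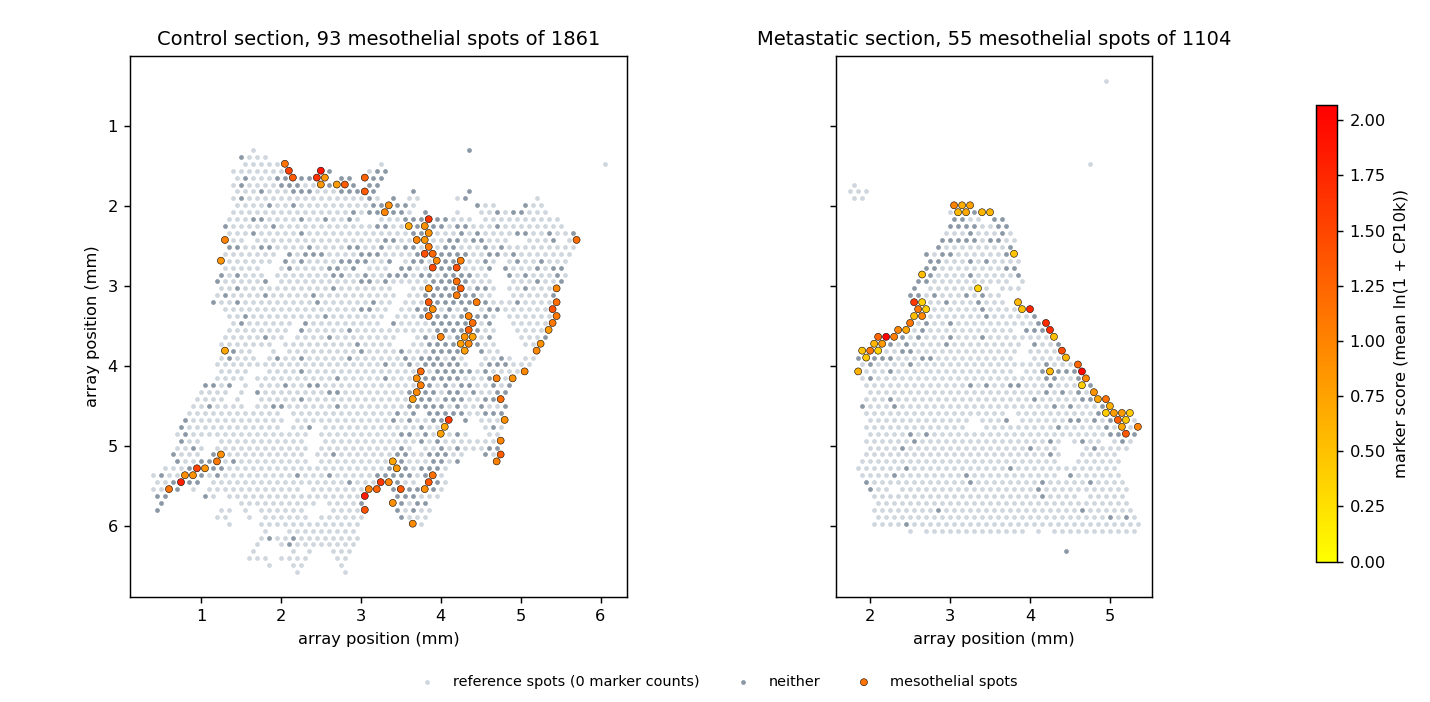
Map of both sections, with array positions in mm on both axes and each spot with at least 1000 counts as a point, mesothelial spots coloured by their score, reference spots pale grey and spots of neither group dark grey. Mesothelial spots follow stretches of the outer border in both sections (43.0% and 70.9% of members lie there) and in the control section also form short lines inside the tissue.

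Not every stretch of the border held mesothelial spots. Of the outer edge spots, 15.7% were members in the control and 24.4% in the metastatic section. The metastatic members lined both flanks of the section down to 4.85 mm on the vertical axis of the map. Up to that line 39 of 136 edge spots (28.7%) were members, and beyond it lay 443 spots, 86 of them at the edge, with 0 members. In the control section the last member lay at 5.98 mm, with 55 spots beyond it.

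Ordered by distance from the edge, the Msln level over all spots of the control section was 1.13 counts per 10000 at the edge, 0.494, 0.437, 0.681 and 0.905 at 1 to 4 steps inside and 0.180 further in, and so had a further high point away from the edge. For the metastatic section it was 0.907 at the edge and 0.253, 0.131, 0.106, 0.0780 and 0.0365 going inwards, lower at each step. The highest level was thus at the edge in both sections, and the profiles of the sections differed at 3 and 4 steps.

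**Figure D3:**
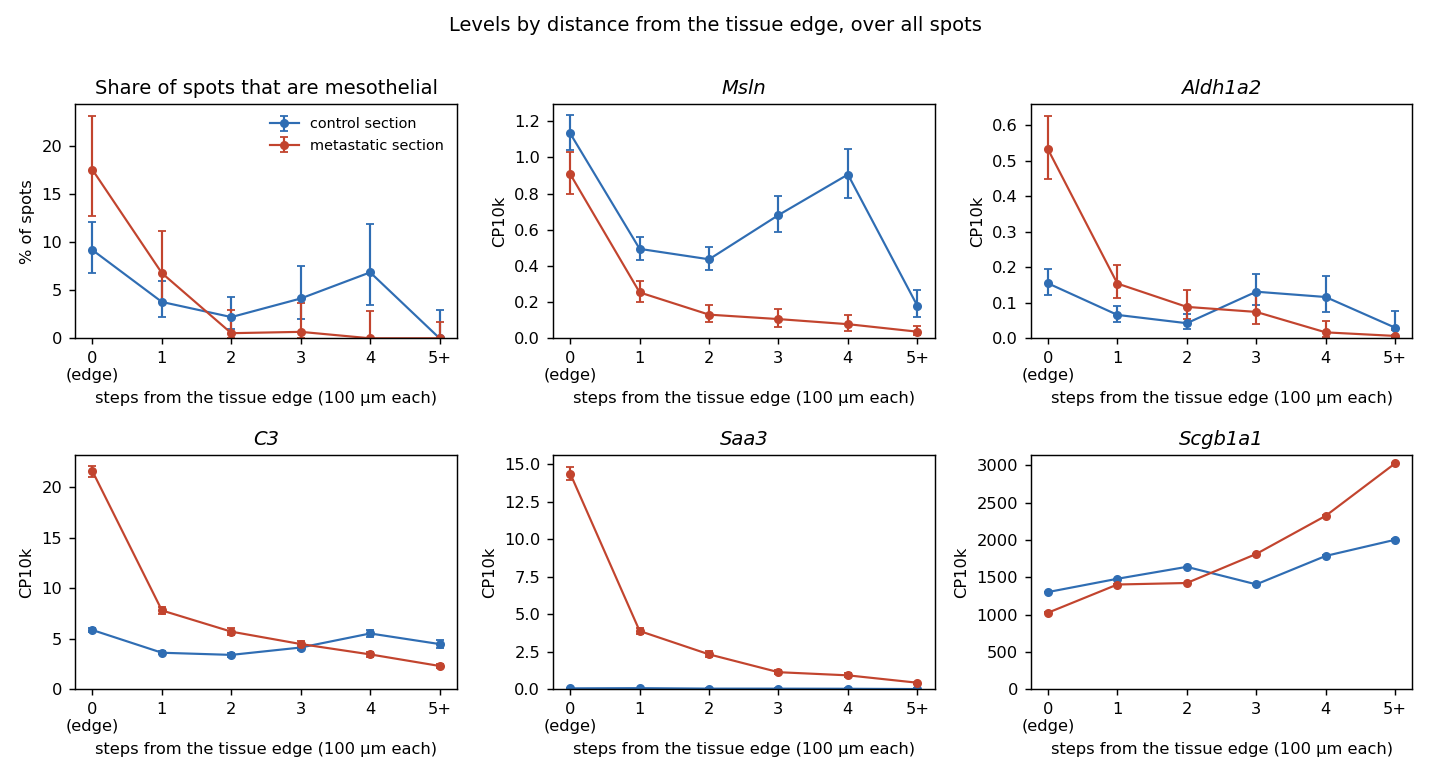
Pooled levels of selected genes over all spots of a section, in counts per 10000 counts, against the number of steps from the tissue edge, for the control and the metastatic section, with 95% exact intervals, beside the share of spots that are mesothelial in percent. Msln is highest at the edge in both sections (1.13 and 0.907) and has a further high point at 4 steps in the control section alone (0.905, against 0.0780 in the metastatic section).

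Ratios were taken for genes with 10 or more counts in mesothelial and reference spots together. Of 14855 such genes, 986 were at least 2-fold higher in mesothelial than in reference spots of the control section (6.64%) and 987 at least 2-fold lower (6.64%). In the metastatic section 1837 of 14386 were at least 2-fold higher (12.8%) and 1045 at least 2-fold lower (7.26%). Among the 14120 genes tested in both, 356 (2.52%) were at least 2-fold higher in each, which was 45.1% of the 790 control genes and 21.0% of the 1695 metastatic genes of that kind. Many of these genes had few counts, and with a minimum of 50 counts the numbers of higher genes were 342 and 1048. The median log2 ratio over all genes was 0.15 and 0.26. A set of 451 abundant genes, among them haemoglobin and secretoglobin genes, made up 13.7% of counts in mesothelial against 24.7% in reference spots of the control section, and 6.70% against 28.7% in the metastatic section. With these left out of the library size the median log2 ratio became −0.05 and −0.13.

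Genes known from mesothelium that the rule did not use were described first. Of 18 such genes, 16 were measured deeply enough in the control section and 13 were at least 2-fold higher, against a background of 6.64%. In the metastatic section 13 of 17 were, against 12.8%. Their median log2 ratio was 2.71 and 2.56, beside 0.15 and 0.26 over all genes. Their summed level was 33.6 counts per 10000 in mesothelial and 8.21 in reference spots of the control section, a ratio of 4.10 (3.94 to 4.26), and 19.4 and 6.15 in the metastatic section, a ratio of 3.16 (2.98 to 3.36). Igfbp6 gave 49% and 21% of these counts in members, and without it the ratios were 3.24 (3.07 to 3.41) and 4.21 (3.92 to 4.51), so the order of the sections turned on this gene.

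Muc16, the mucin that binds mesothelin, had 57 counts in 38 control members and 7 in all control reference spots, a ratio of 115 (52.4 to 299). It had 25 counts in 16 metastatic members and 0 in the metastatic reference spots, at least 155-fold higher against a floor of 3 counts over the reference group. Lrrn4, a leucine-rich repeat membrane protein used as a mesothelial marker, was 55.1-fold (27.0 to 124) and 164-fold (70.7 to 468) higher. Cldn15, a claudin of tight junctions, was 31.7-fold (20.2 to 50.9) and 60.1-fold (31.7 to 122) higher, and Bnc1, the transcription factor basonuclin 1, had 13 counts in control members against 1 in reference spots and 14 against 9 in the metastatic section, a ratio of 184 (27.6 to 7809) and of 28.9 (11.7 to 75.8). Gpm6a, a membrane glycoprotein, was 5.84-fold (4.86 to 6.98) and 5.21-fold (4.11 to 6.55) higher. The reference level of each of these genes was at most 0.306 counts per 10000.

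Other members of the group were less particular to the mesothelial spots. Krt19, a keratin of simple epithelia, had a ratio of 1.83 (1.62 to 2.07) in the control and 0.989 (0.760 to 1.27) in the metastatic section. The calretinin gene Calb2, a common marker of human mesothelium, had 1 count in the control members and 0 in the metastatic members. Over 13 measured genes of simple epithelial keratins and junctions, 2 and 1 were at least 2-fold higher, beside 6.64% and 12.8% of all genes, and the summed ratio was 1.36 (1.297 to 1.42) and 1.13 (1.05 to 1.21). Ezr, encoding the microvillus linker ezrin, was 2.05-fold (1.82 to 2.31) and 1.85-fold (1.55 to 2.20) higher.

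Aldh1a2, which encodes the enzyme that makes retinoic acid in the mesothelium, was among the genes most particular to these spots. It was at 0.969 counts per 10000 (0.783 to 1.19) in control members, with spots at 0, 0.575 and 5.21, and at 1.90 (1.58 to 2.27) in metastatic members, with spots at 0, 1.26 and 9.31. The median reference spot had none in either section, and the ratios were 34.1 (23.2 to 50.8) and 49.3 (34.9 to 70.9). Rarres2, encoding the chemoattractant chemerin, was at 24.4 counts per 10000 in the control members, with a ratio of 7.24 (6.88 to 7.61), and at 12.8 in the metastatic members, with a ratio of 5.67 (5.23 to 6.13). Other genes of retinoid handling did not share this pattern. Rdh10, which makes the retinaldehyde that Aldh1a2 uses, had ratios of 0.877 and 3.13, Aldh1a1 of 0.848 and 0.576 and the retinaldehyde reductase Dhrs3 of 0.985 and 0.442. Of the retinoid genes measured, 2 of 10 and 4 of 11 were at least 2-fold higher, beside 6.64% and 12.8% of all genes.

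Further genes ranked high in both sections. Pkhd1l1, encoding a large membrane protein related to fibrocystin, had 54 counts in control members and 45 in reference spots, a ratio of 17.0 (11.2 to 25.8), and 69 against 11 in the metastatic section, a ratio of 117 (61.3 to 245). Slpi, a secreted inhibitor of leukocyte proteases, was at 5.35 counts per 10000 in control and 15.7 in metastatic members, with ratios of 19.8 (17.3 to 22.7) and 14.7 (13.5 to 15.9). Bst1, a surface enzyme that cleaves NAD, was 19.8-fold (14.8 to 26.6) and 7.33-fold (5.67 to 9.40) higher. Rspo1, a secreted enhancer of Wnt signalling, was 10.5-fold (8.00 to 13.7) and 9.21-fold (6.45 to 13.01) higher, and Sulf1, which trims sulfate from heparan chains, 6.52-fold (5.18 to 8.18) and 8.81-fold (6.54 to 11.8). Sbsn, encoding suprabasin, was 10.3-fold and 9.59-fold higher, Podn, a small matrix proteoglycan, 5.58-fold and 13.9-fold, and Timp1, an inhibitor of matrix metalloproteinases, 5.38-fold and 10.5-fold. Has1, a hyaluronan synthase, had 13 counts in control members against 3 in reference spots and 10 against 5 in the metastatic section, ratios of 61.2 (16.8 to 335) and 37.2 (11.6 to 139).

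Airway genes were low in mesothelial spots of both sections. Scgb1a1, encoding the club cell secretory protein, was at 249 counts per 10000 in control members and 1687 in reference spots, and at 37.6 and 2159 in the metastatic section, ratios of 0.147 and 0.0174. Of 8 ciliated cell genes measured in each section, 5 and 8 were at least 2-fold lower, beside 6.64% and 7.26% of all genes. The genes with the lowest ratios in both sections were picked among genes with at least 50 counts in the reference spots of each section. Their low counts in members follow from that choice. Hs3st6, Vwa3a, Fam151b, Ccdc187 and Atp2b2 had 0 counts in members of either section and were at least 1.42-fold to 2.15-fold lower against a floor of 3 counts over the members. Stk33 had 1 count in control members, a ratio of 0.0696 (0.00175 to 0.392), and 1700001C02Rik had 2, a ratio of 0.101 (0.0122 to 0.369).

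**Figure D4:**
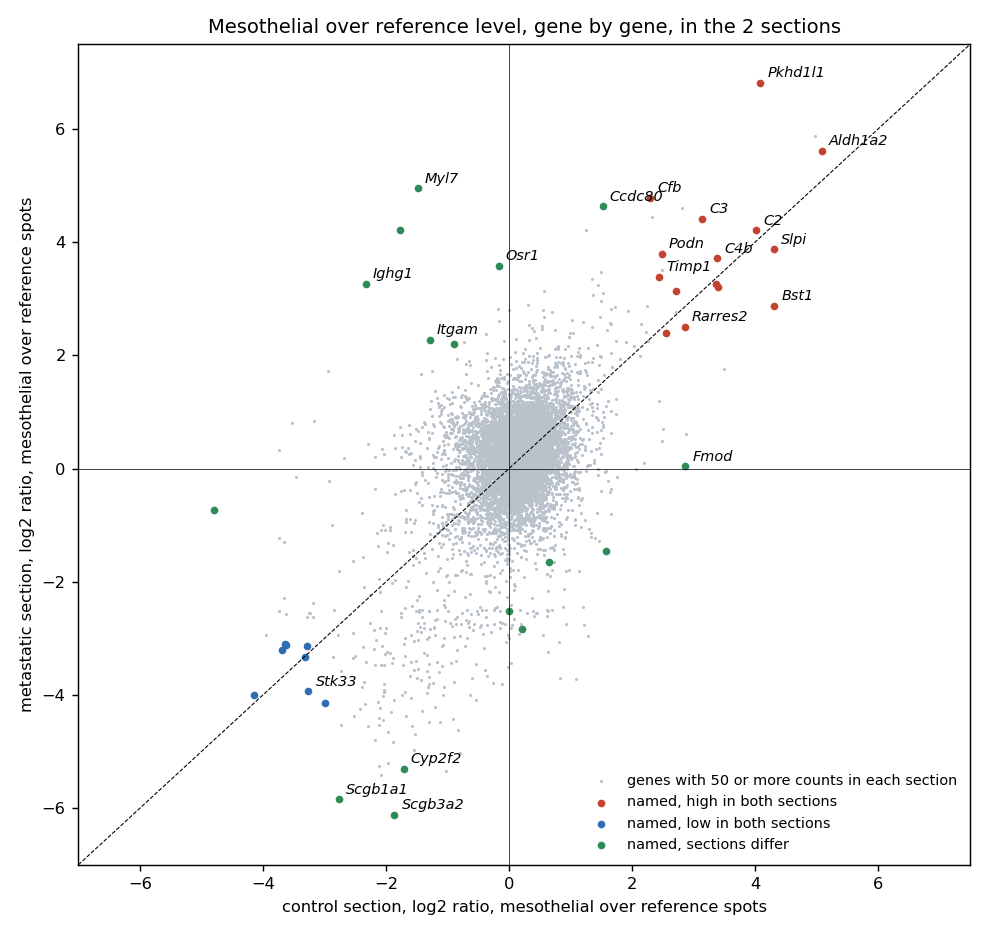
log2 ratio of the pooled level in mesothelial over reference spots in the control section (horizontal) and the metastatic section (vertical), with 1 point per gene with 50 or more counts in each section, named genes in colour and equal ratios on the dashed line. Aldh1a2 (ratios of 34.1 and 49.3) and Slpi (19.8 and 14.7) lie far to the upper right near the line, and C3 (8.79 and 21.3) and Cfb (4.90 and 27.6) lie above it.

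Complement, the cascade of serum proteins that tags particles for removal, was high in mesothelial spots of both sections. Of its genes, 13 of 17 were at least 2-fold higher in the control section, against 6.64% of all genes, and 14 of 18 in the metastatic section, against 12.8%. The median log2 ratio was 1.42 and 2.06. The summed level was 68.2 counts per 10000 in members and 16.2 in reference spots of the control section, a ratio of 4.21 (4.10 to 4.33), and 149 and 17.6 in the metastatic section, a ratio of 8.50 (8.29 to 8.70). C3 alone gave 38% and 53% of these counts, and without it the ratios were 3.21 and 5.06.

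C3, the protein on which all routes of the cascade meet, was at 25.6 counts per 10000 (24.6 to 26.6) in control members, with a lowest, median and highest spot of 2.06, 21.9 and 107. In metastatic members it was at 79.3 (77.1 to 81.5), with spots at 2.12, 66.5 and 245. Every member of both sections had a count, and the spots of the sections overlapped widely. The reference level was 2.91 and 3.72, so that the metastatic level was 3.10-fold the control level in members. The ratios of members over reference were 8.79 (8.35 to 9.24) and 21.3 (20.5 to 22.2).

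Cfb, factor B of the alternative route, differed more. It was at 0.804 counts per 10000 (0.636 to 1.00) in control members, of which 44 of 93 had a count, and at 9.82 (9.07 to 10.6) in metastatic members, of which 53 of 55 did. The ratios over reference were 4.90 (3.74 to 6.37) and 27.6 (24.4 to 31.3), and the metastatic members were at 12.2-fold (9.64 to 15.7) the level of the control members. C2, the matching protease of the classical route, did not differ in this way, with levels of 2.56 and 2.14 and ratios of 16.2 (13.4 to 19.5) and 18.5 (14.5 to 23.6). C4b was at 10.5 and 10.9, with ratios of 10.4 (9.58 to 11.3) and 13.2 (11.9 to 14.5). Its reads can be shared with the close paralog C4a, and its value is uncertain to that extent.

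Among inhibitors of the cascade, Serping1, the C1 inhibitor, had ratios of 3.11 (2.91 to 3.31) and 5.93 (5.52 to 6.36). The proteases of the first component had ratios of 2.44 and 4.35 for C1ra and 2.78 and 6.39 for C1s1. The subunits C1qa, C1qb and C1qc, which macrophages make, had ratios of 2.27, 2.38 and 2.67 in the control and 2.11, 1.74 and 2.08 in the metastatic section. Cd55, a membrane inhibitor, had ratios of 0.762 and 0.656.

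Acute phase genes differed between the sections through Saa3 above all. Saa3, a serum amyloid A protein made in tissues, had 17 counts in 7 control members. Among the metastatic members it had 1894 counts in 50 of 55 members, with spots at 0, 10.8 and 180 counts per 10000. The pooled levels were 0.175 (0.102 to 0.281) and 29.6 (28.3 to 30.9), 169-fold apart (105 to 290). The ratio over reference was 4.90 (2.65 to 8.66) in the control and 21.6 (20.2 to 23.1) in the metastatic section, where reference spots were at 1.37 and so 38.2-fold the control reference level. Saa1 had 0 counts in control members and 37 in metastatic members, against 10 in metastatic reference spots, a ratio of 68.8 (33.6 to 155). Serum amyloid genes are close paralogs that can share reads. Lcn2, an iron-trapping protein, had ratios of 1.19 and 2.99, and Hp, haptoglobin, of 0.269 and 0.0981. Over the list, 2 of 8 and 6 of 9 measured genes were at least 2-fold higher, beside 6.64% and 12.8%.

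Summed over their list, genes induced by interferon were above the reference level in control members and further above it in metastatic members. In the control section 3 of 18 were at least 2-fold higher, against 6.64%, with a summed ratio of 1.33 (1.23 to 1.44) and a median log2 ratio of 0.38. For the metastatic section 12 of 18 were, against 12.8%, with a summed ratio of 3.05 (2.90 to 3.22) and a median of 1.38. Bst2, the membrane protein tetherin, had ratios of 1.19 (0.981 to 1.43) and 4.34 (3.90 to 4.82). Iigp1, a GTPase of the immunity-related family, had ratios of 0.989 (0.603 to 1.54) and 3.92 (3.23 to 4.71). Gbp2, a guanylate-binding protein, was higher in members of both, at 2.67 (2.15 to 3.29) and 4.53 (3.97 to 5.15). The summed level of the list was 3.76-fold higher in the metastatic than in the control members and 1.64-fold higher in the reference spots.

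Genes of fibrillar collagen and elastic fibre followed with smaller ratios. In the control section 3 of 18 were at least 2-fold higher, and 9 of 18 in the metastatic section, beside 6.64% and 12.8%. Col3a1 was at 5.43 counts per 10000 in control and 10.7 in metastatic members, with ratios of 2.54 (2.31 to 2.79) and 10.2 (9.28 to 11.2). Col1a1 was at 1.87 and 1.90 in the members and at 1.12 and 0.352 in the reference spots, so that its ratios were 1.67 and 5.42 while the levels in members were close. The same held for the list, whose summed level in metastatic members was 0.995-fold that in control members, against 0.522-fold in reference spots. Among genes of mesothelial-mesenchymal transition, 2 of 15 and 3 of 16 were at least 2-fold higher, beside the same shares of all genes, and the summed ratio was 1.06 (1.02 to 1.11) and 1.98 (1.89 to 2.07). Fn1, encoding fibronectin, gave 43% of the metastatic counts, with ratios of 1.202 (1.09 to 1.32) and 3.80 (3.53 to 4.10), and Vim, encoding vimentin, had ratios of 1.41 and 2.05. Acta2, the smooth muscle actin, had ratios of 0.144 and 0.124, and Tagln, another smooth muscle gene, of 0.305 and 0.447.

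**Figure D5:**
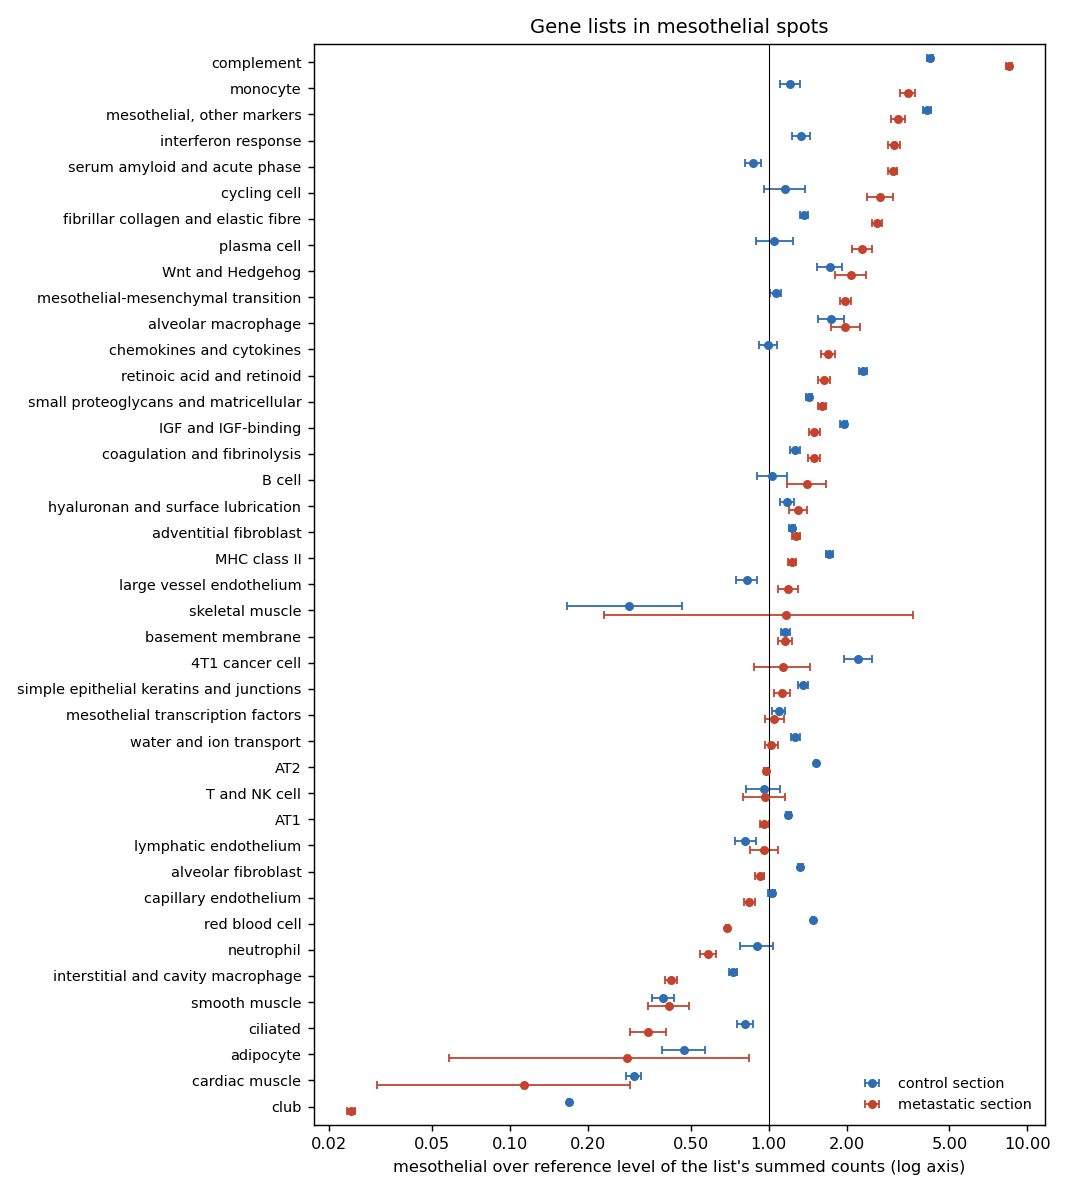
Ratio of the summed level of each gene list in mesothelial over reference spots, on a log axis, with 95% exact intervals for counting error, for the control and the metastatic section. Complement (4.21 and 8.50) and other mesothelial markers (4.10 and 3.16) are high in both sections, and club cell genes are low in both (0.169 and 0.0243).

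Between the sections, the ratio of members over reference was at least 2 times as large in the metastatic section for 222 of 5814 genes (3.82%) and at most 0.5 times as large for 151 (2.6%). Ccdc80, a secreted matrix-binding protein, was 2.85-fold (2.10 to 3.795) higher in control and 24.8-fold (20.0 to 30.9) higher in metastatic members, 8.66 times apart (6.08 to 12.3). Osr1, a zinc-finger transcription factor of mesenchyme, had ratios of 0.862 (0.475 to 1.45) and 12.0 (8.34 to 17.0). The list of mesothelial transcription factors, which holds Osr1, Bnc1 and Wt1, had summed ratios of 1.09 (1.03 to 1.16) and 1.05 (0.964 to 1.14). Of its genes, 3 of 17 and 2 of 15 were at least 2-fold higher, beside 6.64% and 12.8% of all genes. Its median log2 ratio was 0.165 and −0.099, beside 0.15 and 0.26 over all genes. Prg4, the lubricating glycoprotein lubricin, was in 5 control members, with 38% of its counts in 1 spot, and in 37 metastatic members, with ratios of 6.92 (4.06 to 11.5) and 24.4 (18.8 to 31.9). Itgam, an integrin chain of myeloid cells, had ratios of 0.329 and 4.81, with 31% of its metastatic counts in 1 spot. Other genes picked by this difference were heart muscle and immunoglobulin genes, several with few or unevenly spread counts. Myl7, an atrial myosin light chain, had 307 counts in control members against 12173 in reference spots, a ratio of 0.356 (0.317 to 0.399). In the metastatic section it had 2 counts against 1. Igha had 0 counts in control members and 59 in 27 metastatic members, where its ratio was 0.596 (0.452 to 0.772). Of the Ighg1 counts of metastatic members, 81.6% were in 1 spot.

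Igfbp5 and Igfbp6, which encode insulin-like growth factor binding proteins, lay the other way. Of the 11 genes of the insulin-like growth factor list, 2 were at least 2-fold higher in control members and 3 in metastatic members, beside 6.64% and 12.8% of all genes. The median log2 ratio of the list was 0.228 and 0.620, beside 0.15 and 0.26 over all genes. Igfbp5 was at 9.19 counts per 10000 (8.59 to 9.81) in control members, with spots at 0, 7.27 and 31.1, and at 1.31 (1.05 to 1.62) in metastatic members, with spots at 0, 0.805 and 8.14, 0.143-fold (0.113 to 0.179). Its ratios over reference were 11.2 (10.3 to 12.3) and 3.35 (2.62 to 4.23). Igfbp6 was at 16.5 and 4.00, with ratios of 5.67 (5.35 to 6.01) and 1.61 (1.41 to 1.83). Slurp1, a small secreted protein of epithelial surfaces, had 274 counts in control members, of which 65 of 93 had one, and 8 counts in metastatic members, of which 6 of 55 had one, 0.0442-fold (0.0189 to 0.0884) by level. Its ratios over reference were 90.1 (65.1 to 127) and 49.6 (11.9 to 290), since its few metastatic counts also lay mostly in members. Fmod, the proteoglycan fibromodulin, had ratios of 7.27 (5.38 to 9.75) and 0.940 (0.299 to 2.27). Among airway genes, Scgb3a2 had ratios of 0.274 and 0.0140 and Cyp2f2 of 0.305 and 0.0249.

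The metastatic section held a region rich in cycling cells, taken after the data were seen as the top 15% of spots by the cycling list over each spot and its surroundings, 166 spots in all. Of the members, 14 lay inside it and 41 outside. The members outside had the high levels too. C3 was 22.6-fold above reference outside and 19.5-fold inside, Cfb 25.1-fold and 31.3-fold, Saa3 17.4-fold and 27.7-fold, and the interferon list 2.96-fold and 3.19-fold. Complement as a list was 9.04-fold and 7.71-fold. Markers of alveolar tissue did differ between them, with AT2 cell genes at 1.34-fold outside and 0.45-fold inside and capillary genes at 1.28-fold and 0.21-fold. The cycling list itself was at 1.00-fold outside and 5.13-fold inside, a split that follows from how the region was taken. The list of 4T1 genes did not mark connected spots and was at 1.14-fold (0.880 to 1.45) in all metastatic members.

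Markers of other cells moved with some of these results. Over all metastatic members the monocyte list was at 16.6 counts per 10000 against 4.82 in reference spots, a ratio of 3.45 (3.23 to 3.68), with spots between 0 and 138. Its median log2 ratio was 1.35, beside 0.26 over all genes, and 3 of its 6 genes were at least 2-fold higher, beside 12.8% of all genes. Fn1, which many cells other than monocytes express, gave 79% of its counts, 20% of them in 1 spot, and without Fn1 the ratio was 2.55 (2.21 to 2.94). In control members the ratio was 1.21 (1.11 to 1.32), with spots between 0 and 15.3 and 1 of 6 genes at least 2-fold higher, beside 6.64%. The median log2 ratio there was 0.226, beside 0.15 over all genes. The alveolar macrophage list was 1.75-fold (1.55 to 1.96) and 1.98-fold (1.73 to 2.25) higher, with spots between 0 and 12.9 and between 0 and 70.5. Its median log2 ratio was 0.914 and −0.558, beside 0.15 and 0.26 over all genes, and Siglecf was at 0 in metastatic members. Of its 8 genes, 3 and 1 were at least 2-fold higher, beside 6.64% and 12.8%. Marco gave 63% of the metastatic counts, 46% of them in 1 spot, and without it the ratios were 1.74 (1.54 to 1.95) and 0.786 (0.632 to 0.966). The plasma cell list was at 1.05 (0.889 to 1.24) and 2.30 (2.09 to 2.52), with spots between 0 and 6.995 and between 0 and 114. Their part in the complement, acute phase, interferon and collagen ratios was not tested.

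The contrast of outer border with interior, which uses no marker, gave the same genes a position. Over all 254 outer edge spots and 524 spots 3 or more steps inside in the control section, and 160 and 488 in the metastatic section, Msln was 3.83-fold (3.33 to 4.40) and 17.9-fold (12.96 to 25.2) higher at the border. Upk3b was 3.97-fold and 154-fold, Lrrn4 3.17-fold and 87.0-fold, and Aldh1a2 2.97-fold (2.03 to 4.34) and 25.1-fold (15.5 to 43.0) higher. The metastatic ratios of Upk3b and Lrrn4 rested on very few interior counts. At 3 and 4 steps inside, Upk3b had 0 and 3 counts and Lrrn4 1 and 1. Of all genes, 3.13% and 7.29% were at least 2-fold higher at the border. The metastatic edge also held cycling-rich tissue, with 31.3% of the spots of that region at the edge against 18.1% of other spots. At the border the cycling list was at 1.23-fold in the control and 4.07-fold in the metastatic section. The monocyte list was at 1.35-fold and 3.002-fold, and the neutrophil list at 1.25-fold and 0.740-fold. The part of these cells in the border ratios here and below was not tested.

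Complement genes were measured in the same contrast. C3 was 2.05-fold (1.93 to 2.18) higher at the border in the control and 8.53-fold (8.12 to 8.97) in the metastatic section, C2 2.52-fold and 9.50-fold, and C4b 2.15-fold and 6.02-fold. Cfb had a ratio of 1.32 (0.938 to 1.83), an interval that holds 1, at the control border and was 13.8-fold (11.7 to 16.3) higher at the metastatic border. Saa3 was at 0.839-fold (0.247 to 2.29) at the control border and 24.97-fold (22.8 to 27.4) higher at the metastatic border, Ccdc80 at 1.40-fold and 13.1-fold, and Osr1 at 0.655-fold and 4.55-fold. By distance over all metastatic spots, Saa3 was at 14.4 counts per 10000 at the edge and 3.89, 2.33, 1.14, 0.93 and 0.44 going inwards. In the control section, where members also lay 3 and 4 steps inside, C3 was at 5.86 at the edge, 3.61, 3.40, 4.13 and 5.52 at 1 to 4 steps and 4.47 further in. Members at the control edge, at 1 step and at 2 or more steps had C3 ratios of 10.1, 6.01 and 8.87 and Aldh1a2 ratios of 41.8, 25.1 and 30.4, so the members away from the edge carried these genes as well.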

How the data were processed

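The authors deposited raw molecule counts, 1 value for each gene in each spot, made with Space Ranger 1.3.1, with mm10 named in the submitters' processing notes. Only spots over tissue were listed, and no section was pooled. Reads were counted per gene, so near-identical genes can share counts, and 38 symbols stood for more than 1 feature of the 32285. Scores and levels were computed here in Python 3.11.15 with numpy 2.4.6, scipy 1.17.1 and pandas 2.3.3. Levels are summed counts of a gene per 10000 summed counts of a group. Ratios have exact binomial intervals from the split of the counts, levels exact Poisson and shares exact Clopper-Pearson intervals. Intervals of differences between shares combine the limits of both shares. Those of the ratio of the sections' ratios come from summed counting variances on the log scale. The functions were tested on simulated data. Genes with 10 or more counts in the 2 groups together received a ratio, and log2 ratios used a pseudocount of 0.5. Molecules were counted by their identifiers, and the intervals cover counting error only. Named genes were the 4 markers, members of the gene lists, and the 15 highest and 8 lowest in both sections. The highest had at least 50 counts in the mesothelial spots of each section. The lowest had at least 50 in the reference spots of each. The 8 largest differences between sections each way were named too. Slurp1, Cd5l, Alox15 and Arg1 were named outside these rules. Members and lists were chosen with earlier results of these data known. The 18 alternatives set at the start and 3 added after seeing the data are given below. A few genes that these rules name are not reported here.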

Additional observations from a re-analysis of the deposited data

Results flagged for a closer look

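In 5 gene lists the ratio of mesothelial over reference spots lay on opposite sides of 1 in the control and the metastatic section with both intervals leaving out 1, and in each case the difference was not tested. AT2 cell genes were at 1.52 (1.51 to 1.54) and 0.973 (0.955 to 0.992), with 1.34 over the metastatic members outside the cycling-rich region. Alveolar fibroblast genes were at 1.33 (1.29 to 1.36) and 0.922 (0.885 to 0.959), with 1.36 over those members. Red blood cell genes were at 1.48 (1.47 to 1.49) and 0.692 (0.682 to 0.703), with 1.06 over those members. Large vessel endothelium genes were at 0.824 (0.750 to 0.903) and 1.19 (1.08 to 1.304), with 1.60 over those members. The median log2 ratio of this list was −0.343 and 0.152, beside 0.15 and 0.26 over all genes. Over all metastatic members the list was thus no higher than the median gene. The serum amyloid and acute phase list was at 0.870 (0.813 to 0.931) and 3.01 (2.90 to 3.12), and without Hp it was at 3.94 and 9.23.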

How the results depend on the processing

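The higher share of edge spots among mesothelial spots and the higher level of the other mesothelial markers kept their direction under all of the alternatives run. Over these the edge difference lay between 16.3 and 32.5 percentage points in the control and between 35.4 and 69.3 in the metastatic section. With the top 2.5% of spots the metastatic edge difference was 69.3 points, the other markers were at 5.19 and 4.63, and the ratio of the sections' ratios at 0.893. With the top 10% these were 35.4 points and 2.97 and 2.24, and 557 control genes were at least 2-fold higher. With spots thinned to 3000 counts the other markers were at 3.77 and 2.72, and without the cycling-rich region, an alternative added after seeing the data, at 3.39 in the metastatic section. With edge spots alone as reference 635 and 1035 genes were at least 2-fold higher. When the library size excluded the abundant genes, the counts of genes were 644 and 899, the other markers were at 3.58 and 2.42 and the ratio of ratios at 0.675. With a minimum of 50 counts per gene the numbers were 342 and 1048. Only some lists and genes were followed through the alternatives. Among these, directions turned for a few values with heart muscle or few counts. The cardiac muscle section difference was 1.04 with the top 2.5% and 1.15 in thinned spots, Itgam in the control section was at 1.01 with the top 10% and 2.30 in thinned spots, and without spots high in the 4T1 or cardiac muscle lists cardiac muscle, Myl7 and Sln in the control section were at 1.14, 1.501 and 1.44. The cause was not tested. Leaving a leading gene out of its list was also an alternative added after seeing the data. Without Igfbp6 the other markers were at 3.24 and 4.21 and the ratio of ratios at 1.301, on the other side of 1. Without Cbr2 the metastatic list of interstitial and cavity macrophages was at 2.07 instead of 0.420. Of 11 lists whose ratios differed at least 2-fold between the sections, 5 still did with mean levels over spots or without the cycling-rich region, 6 with thinned spots, edge spots as reference or all other spots as reference, and 7 with the top 2.5%. No paired analysis was possible because the 2 sections share only the replicate number 1 and each condition has 1 section, which is also why no section could be left out in turn. In low-count genes the depth limits what can be seen, as for Wt1, with 13 counts in control members.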

Other observations

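Of the chemokines and cytokines, 5 of 16 measured genes were at least 2-fold higher in control members and 8 of 19 in metastatic members, beside 6.64% and 12.8% of all genes, and the summed ratio was 0.993 (0.918 to 1.07) and 1.69 (1.59 to 1.81). Cxcl13, which attracts B cells, had 2 counts in control members and 62 in metastatic members, with a metastatic ratio of 11.3 (8.11 to 15.7). Cxcl10, an interferon-induced chemokine, had 3 and 163 counts, with a metastatic ratio of 4.60 (3.85 to 5.47), and Ccl2 had 4 and 82, with a metastatic ratio of 3.41 (2.66 to 4.33). Il33, an alarmin, had ratios of 2.14 (1.67 to 2.73) and 2.14 (1.60 to 2.83). Genes of macrophages of body cavities and interstitium had a summed ratio of 0.727 (0.700 to 0.754) and 0.420 (0.399 to 0.443). Cbr2, which airway cells also express, gave 83% and 46% of their counts in members, and without it the ratios were 2.16 (1.96 to 2.37) and 2.07 (1.92 to 2.23). Of the 11 genes, 5 and 8 were at least 2-fold higher, beside 6.64% and 12.8%. Among them, Timd4 had ratios of 2.02 (0.617 to 5.18) and 6.77 (3.84 to 11.5) and Folr2 of 1.68 (0.8399 to 3.06) and 4.22 (2.33 to 7.21). Outside this list, several macrophage genes rested in the metastatic section on single spots. Of the members' counts, 46% of Marco, 47% of Cd5l, 42% of Alox15 and 40% of Arg1 were in 1 spot each.

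MHC class II genes were at 1.71 (1.66 to 1.77) and 1.23 (1.18 to 1.28) in members over reference spots. Their median log2 ratio was 0.779 and 0.425, beside 0.15 and 0.26 over all genes. Of the 7 genes, 0 were at least 2-fold higher in either section, beside 6.64% and 12.8% of all genes. Neutrophil genes were at 0.901 (0.778 to 1.04) and 0.581 (0.541 to 0.623), with summed levels in members of 2.09 and 12.5 counts per 10000. Basement membrane genes were at 1.16 (1.12 to 1.21) and 1.15 (1.09 to 1.23), with a median log2 ratio of 0.19 and 0.22, close to that of all genes.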
